A study of Macaca mulatta with 4 samples.

Results

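The genes described here encode the SR proteins, the heterogeneous nuclear ribonucleoproteins (hnRNPs) and the best-known tissue-type regulators of alternative splicing. They were chosen by symbol, with earlier results of these data known. Those taken were SRSF followed by a number and any symbol that begins with HNRNP. TRA2A, TRA2B, PTBP1 to PTBP3, RBFOX1 to RBFOX3, NOVA1, NOVA2, CELF1, CELF2, CELF4, MBNL1 and MBNL2 were added. Of 35395 gene IDs in the count table, 48 matched, and each of the 48 had 10 or more reads in at least 2 libraries, so none was lost to that filter. Their expression was followed in the amygdala of wild type infant rhesus macaques, with 1 female and 1 male in each of 2 conditions. Sevoflurane animals (the exposed female and male) breathed the anaesthetic at roughly 2.5 to 3% for 4 hours, near postnatal days 7, 21 and 35, and the amygdala was collected directly after the last session. Control animals carry only the label control. The sources used here do not give their handling, fasting or gas, so the agent and the handling of the animals cannot be told apart. Any difference between the conditions in RNA quality or library preparation cannot be told apart from them either. The labels do not say whether tissue of several animals was pooled. Each p-value below rests in part on the spread between 2 libraries of a condition, 1 of each sex, so sex is part of that spread. The tests used (edgeR and DESeq2) also draw each gene's spread toward that of the other genes tested. Nothing in the labels tells biological from technical spread.

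SR proteins carry RNA recognition motifs and a domain rich in arginine and serine, and they bind exonic enhancers to recruit the spliceosome. hnRNPs coat nascent transcripts, and many of them bind silencers and oppose SR proteins, so the balance between both classes sets which exons are kept. PTBP, RBFOX, NOVA, CELF and MBNL proteins add tissue-type and developmental control; in the brain, the exchange of PTBP1 for PTBP2 and the rise of RBFOX and NOVA proteins accompany neuronal differentiation. Many of these genes limit their own expression through poison exons, whose inclusion sends the transcript to nonsense-mediated decay. The counts used here are sums over all transcripts of a gene, so they hold no measure of exon inclusion, of poison exons or of splicing itself.

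The libraries held 12477047 to 16293371 reads on genes. Together the 48 genes took 0.767% and 0.689% of reads in the female and male controls, and 1.03% and 1.01% in the female and male given sevoflurane. Levels are counts scaled to library size (CPM) with trimmed-mean (TMM) factors; no gene length was used, so levels are compared between libraries and not between genes. Where values are given as pairs, the female comes before the male. Markers of other cells were read beside them. Of 12 neuronal markers 0 were at 0 reads in any library, 2 were called higher (MAP2 and SYT1) and 2 lower (TUBB3 and SYN1) under sevoflurane, and their summed level ran from 8575 to 8873 CPM in controls and from 9229 to 10365 CPM after sevoflurane. MAP2 went from 14.5 and 7.82 CPM to 992 and 1551 CPM, and SYT1 from 36.2 and 7.37 CPM to 841 and 815 CPM. The other 10 markers summed to 8823 and 8560 CPM in controls and to 7396 and 7999 CPM after sevoflurane. Those 10 leave out the 2 called higher and keep the 2 called lower, so a lower sum follows in part from that choice. Of 7 microglial markers 0 were called higher and 4 lower, with sums of 420 and 375 CPM in controls and 161 and 222 CPM after sevoflurane. The 7 astrocyte markers gave 1 higher and 3 lower, with sums of 4059 to 4350 CPM and 3010 to 3799 CPM, and the 5 endothelial markers gave 2 higher and 1 lower. The 3 markers of oligodendrocyte precursors all lay higher without overlap, 1 of them called (PDGFRA), with sums of 83.6 and 74.9 CPM in controls and 162 and 159 CPM after sevoflurane. Choroid plexus markers summed to 17995 CPM in the male control library against 4.46 to 31.6 CPM in the other libraries, and striatal-type and intercalated neuron markers to 1408 against 191 to 239 CPM. Most of that 1408 CPM was PPP1R1B (1336 CPM). DRD2 was also highest in the male control, while FOXP2, TSHZ1 and MEIS2 were lowest there. Of these 6 markers 3 were called higher after sevoflurane and 1 lower (PPP1R1B). The 6 oligodendrocyte markers summed to 1380 CPM in the female control and 5970 CPM in the male control library, and to 2847 and 3731 CPM after sevoflurane. Reads on 81 ribosomal protein genes made up 2.80% and 3.86% of the control libraries and 1.15% and 1.19% of the sevoflurane libraries. The part of any of these in the results below was not tested.

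A few splicing factors of this group rose steeply after sevoflurane, and most did not pass the test. RBFOX1, PTBP2 and SRSF10 were 17.6-fold, 15.4-fold and 9.50-fold higher after sevoflurane, and SRSF8 and CELF2 5.19-fold and 3.31-fold. The falls were smaller, 2.46-fold for NOVA2, 2.15-fold for HNRNPM, 2.05-fold for RBFOX3 and 1.91-fold for SRSF9. Of the 48 genes, 11 were called higher and 4 lower by edgeR's quasi-likelihood test at a Benjamini-Hochberg adjusted p under 0.05 over all 15417 genes tested, and 33 were not called. The 15 calls are 31.3% of the group, where 40.7% of all genes tested were called. Split by direction, 22.9% were called higher beside 21.3% of all genes, and 8.33% lower beside 19.4%. The median log2 fold change was 0.30, against 0.0040 over all genes, and the median absolute change was 0.49, against 1.05. An absolute log2 fold change above 1 was found for 11 of the 48, or 22.9%, and for 52.0% of all genes. In reads not corrected for length, the group's median control level was 123 CPM, against 18.6 CPM over all genes. The part of read level in these comparisons with all genes was not tested. The sevoflurane libraries lay wholly above the controls for 26 of the 48 genes and wholly below for 11; this absence of overlap, 77.1% of the group, is close to the 75.0% found over all genes. Without the female control, male control, exposed female or exposed male library, the group's median log2 fold change was 0.36, 0.20, 0.34 and 0.24. Over all genes the same fits gave medians of 0.082, 0.053, −0.059 and −0.065. A smaller share was called in each of these 4 fits, of the group and of all genes. Calls lost in them, here and below, are thus not particular to the group. The calls of RBFOX1, PTBP2, SRSF10, SRSF8 and CELF2 were made in each of these 4 fits. With library totals in place of TMM scaling, 14 of the 48 were called higher and 1 lower, where 25.3% and 14.7% of all genes were; the median of all genes moved to 0.24 and that of the group to 0.53. The standing of the group against all genes also turned with the genes tested: with no filter on low counts 17 of the 48 (35.4%) were called beside 33.7% of 22125 genes, and with DESeq2 on the same 22125 genes 17 (35.4%) beside 31.8%. In the DESeq2 shares any gene left without an adjusted p counts as not called.

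**Figure D1:**
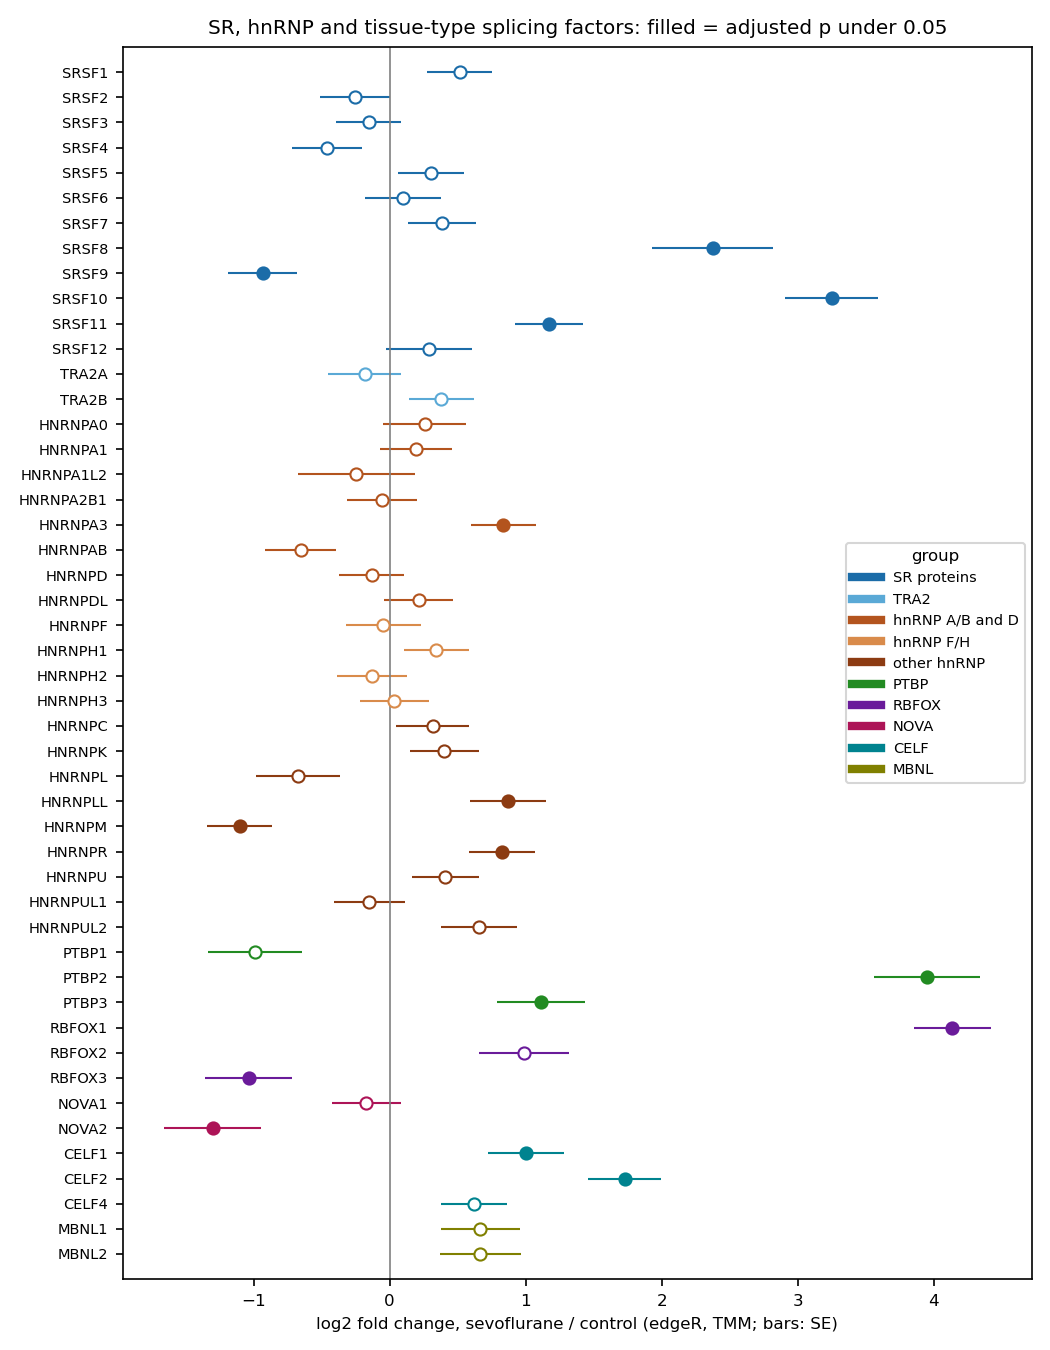
Log2 fold change of each of the 48 genes, sevoflurane over control, with its standard error as a bar; filled points were called at an adjusted p under 0.05 and colours give the protein group. RBFOX1, PTBP2, SRSF10 and SRSF8 stand between 2.37 and 4.14, while the other 44 genes lie between −1.30 and 1.73.

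Among the 12 SR protein genes 3 rose, 1 fell and 8 were not called (33.3% called, beside 40.7% of all genes), with a median log2 fold change of 0.30. SRSF10, which acts as a splicing repressor when dephosphorylated in heat shock and mitosis, stood at 4.11 CPM in the female and 5.15 in the male control, and at 41.3 in the female and 46.6 in the male given sevoflurane. The conditions did not overlap, and the change of 3.25 ± 0.34 SE was called (edgeR adjusted p = 0.00213). Its paralog SRSF12, an antagonist of classical SR proteins, had 20.6 and 19.5 CPM in the controls and 21.5 and 27.5 in the sevoflurane libraries, a change of 0.29 ± 0.31 SE that was not called (edgeR adjusted p = 0.491). SRSF8, a retrogene copy of SRSF2, stood at 8.48 CPM in the female and 4.0 in the male control, and at 33.1 in the female and 32.0 in the male given sevoflurane and rose by 2.37 ± 0.44 SE (edgeR adjusted p = 0.00861). Its change was 3.05 without the female control library and 1.91 without the male control. Since the counting rule is not known, reads that SRSF8 shares with SRSF2 leave its value uncertain. SRSF2 itself, the SC35 protein of nuclear speckles, had 148 and 135 CPM in the controls and 105 and 133 in the sevoflurane libraries (−0.26 ± 0.26 SE), lower in both sevoflurane libraries and not called (edgeR adjusted p = 0.451). SRSF11, which helps include neuronal microexons, stood at 101 CPM in the female and 91.2 in the male control, and at 201 in the female and 231 in the male given sevoflurane. It rose by 1.17 ± 0.25 SE (edgeR adjusted p = 0.0126), a call lost without the male control library (adjusted p = 0.0868).

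The remaining SR genes had changes under 1 on the log2 scale. SRSF9, which selects alternative splice sites, was the one SR gene that fell: it had 78.4 and 90.8 CPM in the controls and 44.6 and 44.0 in the sevoflurane libraries, a change of −0.93 ± 0.25 SE (edgeR adjusted p = 0.0276). That call was lost without the female control (0.0748), the male control (0.152), the exposed female (0.0722) or the exposed male library (0.0883), and with library totals (0.0665), in fits of edgeR with adjusted p throughout. SRSF1, the SF2/ASF protein and the founding member of the family, had 195 and 198 CPM in the controls and 269 and 294 in the sevoflurane libraries (0.52 ± 0.24 SE). It was not called with TMM (adjusted p = 0.127) but was with library totals (0.75, adjusted p = 0.0485). Reads on SRSF1 relative to SRSF9, a ratio that needs no scaling between libraries, were 2.42 times higher after sevoflurane in females and 3.06 times in males. SRSF3 and SRSF7, which also hand messenger RNA to the export receptor, did not reach a call: SRSF3 had 121 and 118 CPM in the controls and 103 and 112 in the sevoflurane libraries (−0.15 ± 0.24 SE, and 0.077 with library totals). SRSF7 had 103 and 83.8 CPM in the controls and 119.5 and 125 in the sevoflurane libraries (0.38 ± 0.25 SE). Of the closely related SRSF4, SRSF5 and SRSF6, which have long arginine-serine domains, none was called by edgeR, at an unadjusted p under 0.05 or after adjustment, nor by DESeq2. SRSF4 had 119 and 105 CPM in the controls and 90.2 and 72.8 in the sevoflurane libraries (−0.46 ± 0.26 SE), the lower values being those of sevoflurane. SRSF5 had 226 and 234 CPM in the controls and 267 and 301 in the sevoflurane libraries (0.30 ± 0.24 SE), in the other direction. SRSF6, whose libraries overlapped between the conditions, had 163 and 179 CPM in the controls and 150.3 and 216 in the sevoflurane libraries (0.10 ± 0.28 SE).

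TRA2A and TRA2B, SR-like proteins that bind enhancers rich in GAA, were both outside the calls. TRA2A stood at 133 CPM in the female and 140.2 in the male control, and at 139 in the female and 102 in the male given sevoflurane, so that only the exposed male lay apart (−0.18 ± 0.27 SE, and 0.053 with library totals). TRA2B had 95.6 and 96.8 CPM in the controls and 132 and 119 in the sevoflurane libraries (0.38 ± 0.24 SE), higher after sevoflurane in both sexes. The reads of TRA2B relative to TRA2A were 1.32 times higher in the female and 1.69 times in the male sevoflurane library.

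The 21 hnRNP genes included 3 that rose, 1 that fell and 17 that were not called, and their median log2 fold change was 0.19. By direction, 14.3% were called higher and 4.76% lower, beside 21.3% and 19.4% of all genes. In the A/B and D subgroup, whose founding members silence exons, 1 of 8 was called. HNRNPA3, which also takes part in the transport of messenger RNA, stood at 185 CPM in the female and 173 in the male control, and at 309 in the female and 329 in the male given sevoflurane and rose by 0.84 ± 0.24 SE (edgeR adjusted p = 0.0336). Its call did not survive the loss of any library, with adjusted p = 0.123 without the female control, 0.212 without the male control, 0.0563 without the exposed female and 0.0911 without the exposed male. HNRNPA2B1 had 941 and 955 CPM in the controls and 978 and 849 in the sevoflurane libraries, with overlapping conditions (−0.053 ± 0.26 SE, and 0.18 with library totals). HNRNPA1 had 295 and 289 CPM in the controls and 381 and 285 in the sevoflurane libraries (0.19 ± 0.26 SE), also overlapping. HNRNPA1L2, a retrogene copy of HNRNPA1 whose count may hold reads of the parent, had 12.6 and 14.7 CPM in the controls and 8.17 and 14.9 in the sevoflurane libraries (−0.24 ± 0.43 SE). HNRNPA0, a binder of AU-rich elements, had 86.0 and 69.9 CPM in the controls and 112 and 73.8 in the sevoflurane libraries (0.26 ± 0.30 SE). Across HNRNPA1, HNRNPA2B1 and HNRNPA3 the share of reads on HNRNPA3 was 13.0% in the female and 12.2% in the male control, and 18.5% in the female and 22.5% in the male given sevoflurane.

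HNRNPD, known as AUF1 for its binding to AU-rich elements that mark messenger RNA for decay, had 250.5 and 232 CPM in the controls and 227 and 213 in the sevoflurane libraries (−0.13 ± 0.24 SE, and 0.10 with library totals). HNRNPDL, its paralog, had 433 and 374 CPM in the controls and 434 and 502 in the sevoflurane libraries (0.21 ± 0.25 SE). HNRNPAB had 142 and 109 CPM in the controls and 77.3 and 82.8 in the sevoflurane libraries (−0.65 ± 0.26 SE, edgeR adjusted p = 0.0879), lower in both sevoflurane libraries but short of a call. The F/H proteins bind runs of G. Of the 4, edgeR called 0, where 40.7% of all genes were called. DESeq2 also called 0, and 0 had an unadjusted p under 0.05 in edgeR. HNRNPH1 had 208 and 205 CPM in the controls and 276 and 247 in the sevoflurane libraries (0.34 ± 0.24 SE), without overlap. The remaining members overlapped between conditions: HNRNPH2 had 238 and 278 CPM in the controls and 214 and 259 in the sevoflurane libraries (−0.13 ± 0.26 SE, and 0.10 with library totals). HNRNPH3 had 164 and 156 CPM in the controls and 183 and 144 in the sevoflurane libraries (0.034 ± 0.25 SE). HNRNPF had 63.5 and 77.0 CPM in the controls and 77.2 and 58.9 in the sevoflurane libraries (−0.045 ± 0.27 SE, and 0.19 with library totals).

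Of the other 9 hnRNP genes 2 rose and 1 fell (33.3% called, beside 40.7% of all genes). HNRNPM, a binder of GU-rich sequences, stood at 212 CPM in the female and 219 in the male control, and at 99.9 in the female and 101 in the male given sevoflurane. The replicates of each condition lay close together, and the change of −1.10 ± 0.24 SE was called (edgeR adjusted p = 0.0134). The call was lost without the male control (adjusted p = 0.0556) and, narrowly, without the exposed male library (0.050); it held with library totals (−0.87, 0.0298), the one fall of the group that did. HNRNPR, which binds the SMN protein and axonal messenger RNA in motor neurons, had 128 and 109.5 CPM in the controls and 205 and 216 in the sevoflurane libraries and rose by 0.83 ± 0.25 SE (edgeR adjusted p = 0.0373). HNRNPLL, which represses variable exons of CD45 in lymphocytes, had 36.7 and 29.6 CPM in the controls and 55.7 and 65.4 in the sevoflurane libraries and rose by 0.87 ± 0.28 SE (0.0478). Neither call outlasted the loss of a library: for HNRNPR the adjusted p was 0.105 without the female control, 0.258 without the male control, 0.0655 without the exposed female and 0.101 without the exposed male. For HNRNPLL the same fits gave 0.0909, 0.280, 0.0707 and 0.152 in that order.

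HNRNPL, the paralog of HNRNPLL that binds CA repeats, went the other way: it stood at 332 CPM in the female and 361 in the male control, and at 268 in the female and 166 in the male given sevoflurane (−0.67 ± 0.31 SE, edgeR adjusted p = 0.122). The exposed male library lay lowest, and without the exposed female library the fall was called (−1.05, adjusted p = 0.0451). HNRNPC, which coats uridine tracts and keeps cryptic exons out, had 419 and 366 CPM in the controls and 424 and 555 in the sevoflurane libraries (0.32 ± 0.27 SE). HNRNPK, a binder of C-rich sequences, had 409.5 and 395 CPM in the controls and 480.1 and 584 in the sevoflurane libraries (0.40 ± 0.25 SE). HNRNPU, a nuclear scaffold protein, had 430.0 and 378 CPM in the controls and 509 and 565 in the sevoflurane libraries (0.41 ± 0.25 SE). All of HNRNPC, HNRNPK and HNRNPU were higher in both sevoflurane libraries, and none was called by edgeR or DESeq2. Of the paralogs of HNRNPU, HNRNPUL2 had 105 and 72.8 CPM in the controls and 134 and 146 in the sevoflurane libraries (0.66 ± 0.28 SE). HNRNPUL1 had 136 and 134 CPM in the controls and 138 and 105 in the sevoflurane libraries (−0.15 ± 0.26 SE, and 0.085 with library totals).

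Of the 13 tissue-type regulators 5 rose, 2 fell and 6 were not called, so that 53.8% were called beside 40.7% of all genes. Their median log2 fold change was 0.67. In size their changes were close to those of all genes, with a median absolute change of 1.0 against 1.05. An absolute change above 1 was found for 53.8% of them and for 52.0% of all genes. PTBP2, the polypyrimidine tract-binding protein of neuronal precursors and young neurons, stood at 6.33 CPM in the female and 3.82 in the male control, and at 68.0 in the female and 89.6 in the male given sevoflurane. Both sevoflurane libraries exceeded both controls by more than 10-fold, and the change of 3.95 ± 0.39 SE was called (edgeR adjusted p = 0.00193). PTBP1, the form of non-neuronal cells, which blocks productive splicing of PTBP2, stood at 48.7 CPM in the female and 55.3 in the male control, and at 33.0 in the female and 19.4 in the male given sevoflurane. It was lower in both sevoflurane libraries (−0.99 ± 0.35 SE) but just outside the threshold in edgeR (adjusted p = 0.0618). DESeq2 called it (adjusted p = 0.0436), as did edgeR without the exposed female library (−1.41, adjusted p = 0.0339); with library totals the change was −0.75 (adjusted p = 0.134). PTBP3, first described in blood cells, had 29.4 and 26.8 CPM in the controls and 47.0 and 74.7 in the sevoflurane libraries and rose by 1.11 ± 0.32 SE (edgeR adjusted p = 0.0354). Its call was lost without the female control (adjusted p = 0.0670), the male control (0.135) or the exposed male library (0.75, 0.154).

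Shares within the family need no scaling between libraries. PTBP2 held 7.50% (6.12 to 9.07) in the female and 4.45% (3.24 to 5.94) in the male control, and 46.0% (43.9 to 48.0) in the female and 48.8% (46.9 to 50.7) in the male given sevoflurane, with exact 95% binomial intervals in parentheses that cover counting error only. PTBP1 held 57.7% (54.9 to 60.4) in the female and 64.3% (61.2 to 67.3) in the male control, and 22.3% (20.6 to 24.0) in the female and 10.5% (9.41 to 11.8) in the male given sevoflurane. The PTBP2 share was thus far above, and the PTBP1 share below, the control range in both sevoflurane libraries; the PTBP2 to PTBP1 ratio was 15.9 times higher in females and 66.9 times in males. With 2 libraries a condition, an exact two-sided permutation test of a single ratio cannot go below p = 0.333, so no test was made of these shares. PTBP1 is expressed in glia and vessels. Of the glial marker sums given above, the microglial one was lower after sevoflurane (161 and 222 against 420 and 375 CPM). The astrocyte sum was lower too (3010 and 3799 against 4350 and 4059 CPM), with 1 marker called higher and 3 lower. So was the endothelial sum (123 and 118 against 160 and 207 CPM), with 2 markers called higher and 1 lower. That of oligodendrocyte precursors was higher, and that of oligodendrocytes overlapped between conditions. Within the microglial list, P2RY12 and TMEM119 also overlapped. The part of such cells in the PTBP1 level was not tested.

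**Figure D2:**
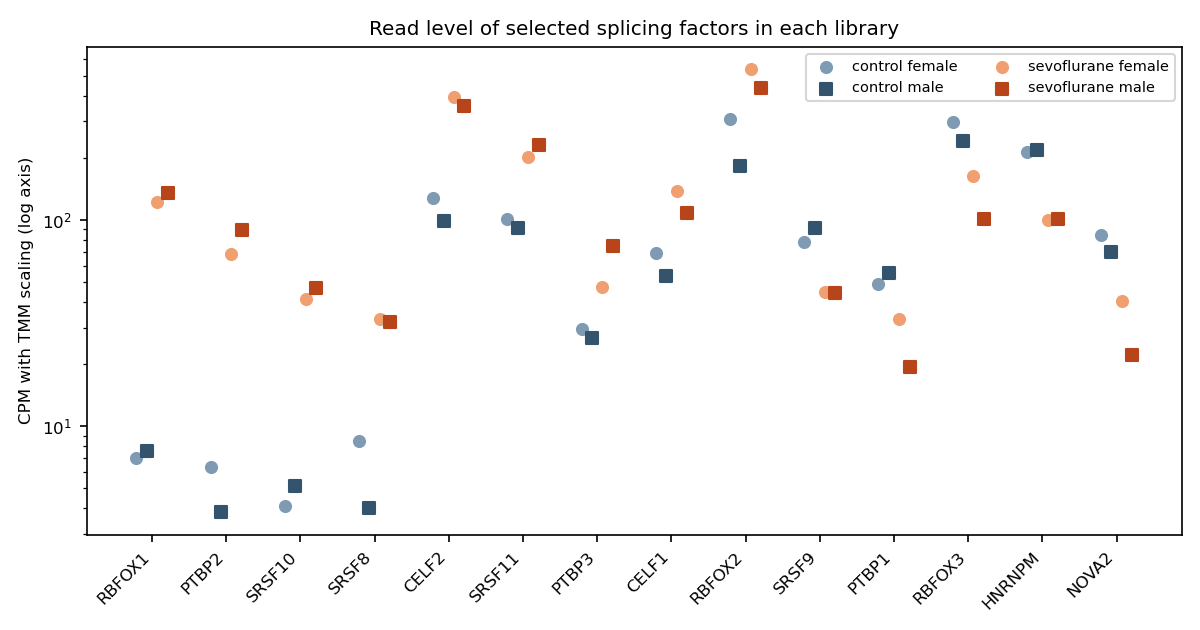
CPM with TMM scaling (log axis) in each of the 4 libraries for the called genes of largest change and for RBFOX2 and PTBP1; circles are females, squares males, blue controls and orange sevoflurane. RBFOX1 and PTBP2 lie under 10 CPM in both controls and above 60 CPM in both sevoflurane libraries.

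RBFOX proteins bind GCAUG and promote or block neuronal exons by their position beside the exon. RBFOX1 stood at 7.05 CPM in the female and 7.55 in the male control, and at 122 in the female and 135 in the male given sevoflurane, the largest rise of the 48 genes (4.14 ± 0.28 SE, edgeR adjusted p = 0.00141). The female and male libraries of a condition lay close together, and the log2 fold change ranged from 4.07 to 4.21 when single libraries were left out. RBFOX2, which is also active outside neurons, had 308 and 182 CPM in the controls and 537 and 436 in the sevoflurane libraries, where the female control lay above the male control and both below the sevoflurane libraries. Its change of 0.99 ± 0.33 SE missed the threshold (edgeR adjusted p = 0.0536), and it was called by DESeq2 (0.0203), with library totals (1.21, 0.0348) and without the female control library (1.44, 0.0214). RBFOX3, which encodes the neuronal nuclear antigen NeuN, went down: it stood at 298 CPM in the female and 240.3 in the male control, and at 162 in the female and 101 in the male given sevoflurane (−1.04 ± 0.32 SE, edgeR adjusted p = 0.0415). Its call was lost without the female control (adjusted p = 0.141) or the exposed male library (−0.73, 0.147), and with library totals (−0.80, 0.0964). In bulk tissue, fewer cells of a type and less RNA per cell cannot be told apart. The 12 neuronal markers given above moved both ways: their sum was higher after sevoflurane through MAP2 and SYT1. That of the other 10 was lower (7396 and 7999 against 8823 and 8560 CPM). Those 10 leave out the 2 called higher and keep TUBB3 and SYN1, called lower, so that direction follows in part from the choice. The part of the neuronal markers in the RBFOX3 level was not tested.

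Among the RBFOX reads, RBFOX1 held 1.15% (0.943 to 1.38) in the female and 1.76% (1.40 to 2.17) in the male control, and 14.9% (14.3 to 15.5) in the female and 20.0% (19.3 to 20.9) in the male given sevoflurane. RBFOX3 held 48.6% (47.6 to 49.7) in the female and 55.9% (54.5 to 57.3) in the male control, and 19.8% (19.1 to 20.4) in the female and 15.0% (14.3 to 15.7) in the male given sevoflurane. The RBFOX1 to RBFOX3 ratio was 31.9 times higher after sevoflurane in females and 42.6 times in males. The share of RBFOX2 was 50.2% in the female and 42.4% in the male control, and 65.4% in the female and 65.0% in the male given sevoflurane.

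NOVA proteins bind clusters of YCAY and shape synaptic and axonal exons. NOVA2 stood at 84.2 CPM in the female and 69.7 in the male control, and at 40.3 in the female and 22.2 in the male given sevoflurane and fell by 1.30 ± 0.36 SE on the log2 scale (edgeR adjusted p = 0.0295). The call was lost without the female control (adjusted p = 0.0646) or the exposed male library (0.0920) and with library totals (−1.07, 0.0611). NOVA1 had 109 and 93.2 CPM in the controls and 96.3 and 82.8 in the sevoflurane libraries, with overlapping conditions and no call (−0.17 ± 0.25 SE, and 0.059 with library totals). Of the reads on the pair, NOVA1 held 56.3% in the female and 57.2% in the male control, and 70.5% in the female and 78.9% in the male given sevoflurane.

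CELF proteins bind GU-rich sequences and often act against MBNL proteins on the same exons during development. CELF2 stood at 128 CPM in the female and 98.2 in the male control, and at 394 in the female and 355 in the male given sevoflurane, a rise of 1.73 ± 0.27 SE (edgeR adjusted p = 0.00491) without overlap. CELF1 had 69.1 and 53.4 CPM in the controls and 138 and 108 in the sevoflurane libraries and rose by 1.0 ± 0.28 SE (edgeR adjusted p = 0.0305), a call lost without the male control (adjusted p = 0.199) or the exposed female library (0.0958). CELF4, which is enriched in neurons, had 150.2 and 133 CPM in the controls and 208 and 227 in the sevoflurane libraries (0.62 ± 0.24 SE). It was not called with TMM (edgeR adjusted p = 0.0846) but was with library totals (0.85, 0.0370). CELF2 held 36.8% and 34.5% of the reads on these 3 genes in the female and male controls, and 53.3% and 51.5% after sevoflurane. MBNL1 and MBNL2, the proteins sequestered by repeat RNA in myotonic dystrophy, were higher in both sevoflurane libraries without a call. MBNL1 had 44.0 and 40.4 CPM in the controls and 54.8 and 79.3 in the sevoflurane libraries (0.67 ± 0.29 SE). MBNL2 had 125 and 134 CPM in the controls and 161 and 252 in the sevoflurane libraries (0.67 ± 0.30 SE), highest in the exposed male, and was called without the exposed female library (0.97, adjusted p = 0.0450). The MBNL2 to MBNL1 read ratio after sevoflurane was 1.03 times that of the control in females and 0.955 times in males.

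**Figure D3:**
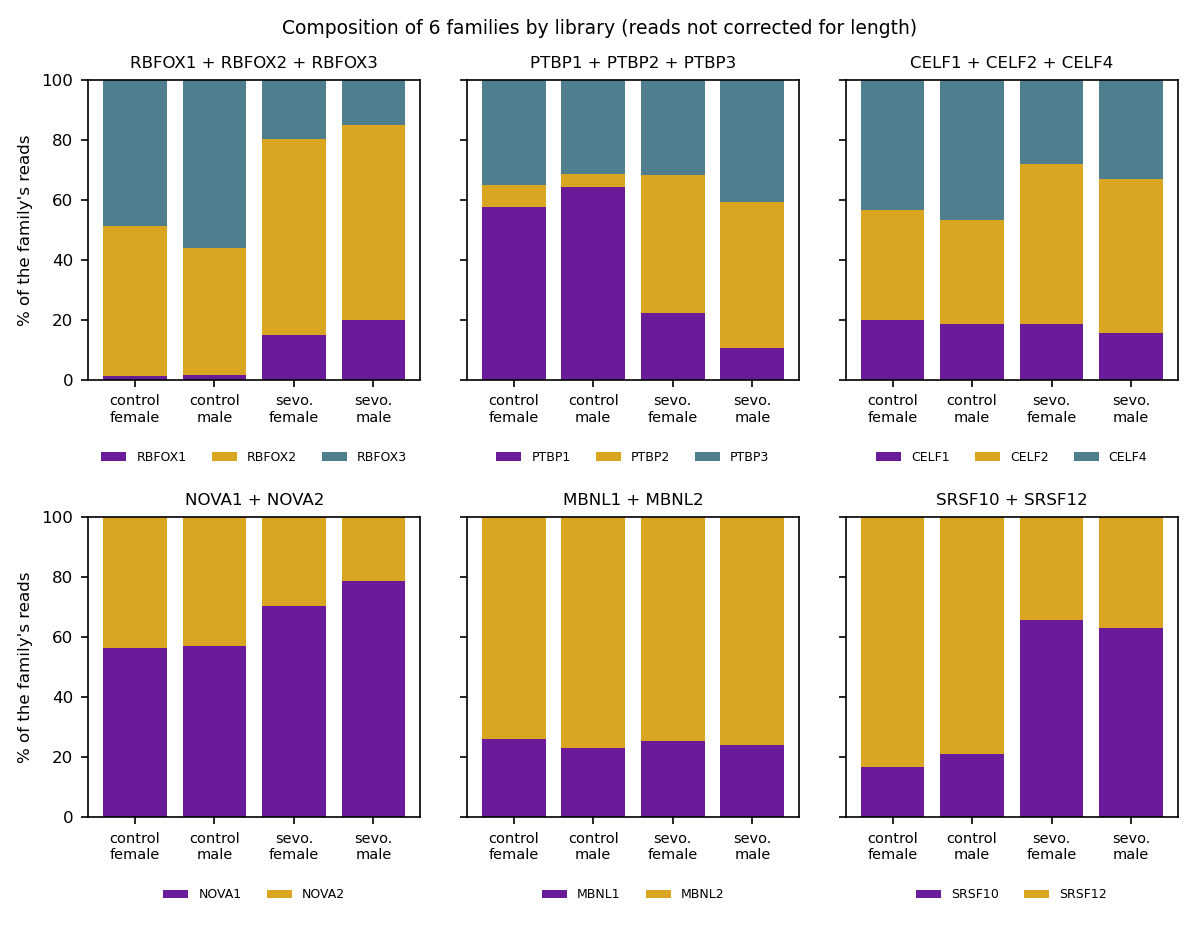
Share of each gene in the reads of its family (percent, bars sum to 100) for 6 families in each library. Reads were not corrected for length, so shares are compared across libraries and not across genes. The part of RNA quality or library preparation in the shares was not tested. PTBP2 goes from 7.50% and 4.45% in controls to 46.0% and 48.8% after sevoflurane, while the MBNL pair keeps MBNL1 between 23.1% and 26.0%.

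The study sampled a female and a male per condition, so the change could be read in each sex from libraries that the other sex does not share. Of the 48 genes, 40 (83.3%) had the same sign in both sexes, beside 85.3% of all genes tested. Across the 48 genes the female and male log2 fold changes correlated at r = 0.940 (Spearman's rho = 0.873), against 0.859 (0.851) over all genes; genes are not independent replicates, and the values share their library depths and scaling. RBFOX1 was at 4.09 in females and 4.13 in males, and SRSF10 at 3.29 and 3.14. PTBP2 was at 3.40 and 4.50, and PTBP1 at −0.56 and −1.51; whether the sexes differ in their response could not be tested with 1 library for each sex and condition. Between males and females, with condition held in the model, 0 of the 48 genes were called by edgeR, where 1.84% of all genes were. At an unadjusted p under 0.05 the count was 0 in edgeR and 0 in DESeq2, and DESeq2 also called 0. Fitted differences ran from −0.56 (NOVA2) to 0.55 (HNRNPA1L2) on the log2 scale, and 44 of the 48 were under 0.5 in size. That fit has 1 residual degree of freedom, so a miss of the threshold does not show that the sexes were alike.

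**Figure D4:**
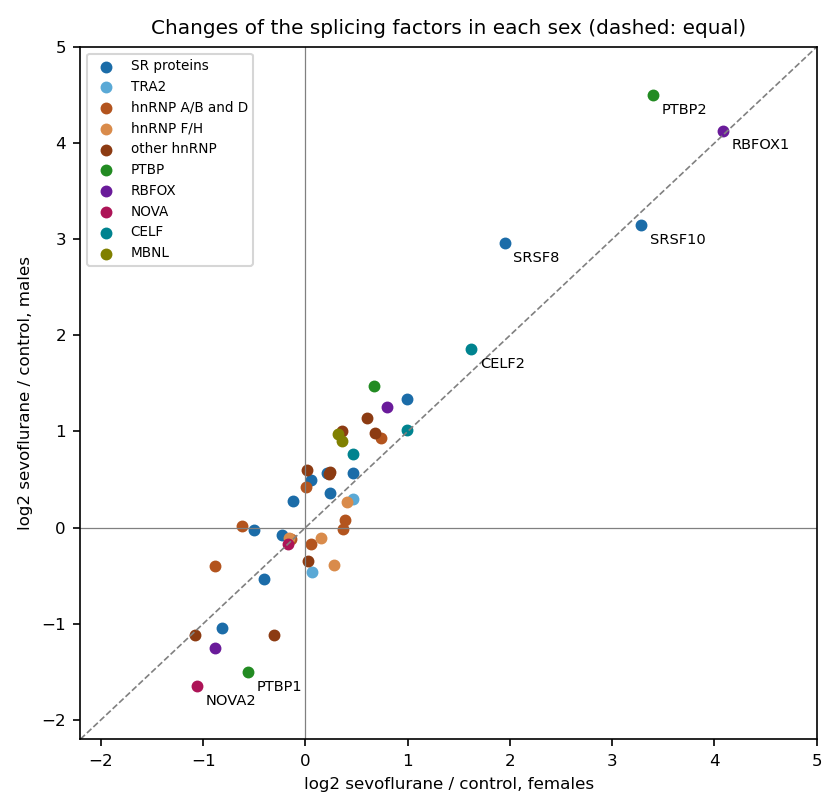
Log2 fold change, sevoflurane over control, in females (x axis) and in males (y axis) for the 48 genes, 1 point per gene, from log2 CPM with a prior count of 2; the dashed line marks equal change. RBFOX1 and SRSF10 lie close to the line, and PTBP2 (3.40, 4.50) and PTBP1 (−0.56, −1.51) lie away from it.

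Other genes of the splicing pathway were counted from lists. Of 9 tested kinases and transport proteins that act on SR proteins, 2 rose and 1 fell (33.3% called, beside 40.7% of all genes), with a median log2 fold change of 0.21; 1 rose without the male control library, and 2 fell without the exposed female. SRPK2, an SR protein kinase abundant in brain, stood at 37.6 CPM in the female and 23.8 in the male control, and at 206 in the female and 227 in the male given sevoflurane (2.82 ± 0.32 SE, edgeR adjusted p = 0.00248). DYRK1A, a kinase that phosphorylates SR proteins, rose by 1.27 ± 0.25 SE, a call lost without the male control library (adjusted p = 0.0760). SRPK3, the muscle-enriched paralog, had 47.8 and 37.0 CPM in the controls and 14.7 and 5.22 in the sevoflurane libraries (−2.09 ± 0.52 SE). CLK1, which releases SR proteins from speckles, had 169.7 and 134 CPM in the controls and 211 and 139 in the sevoflurane libraries and was not called (0.21 ± 0.30 SE).

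Of 23 SR-related coactivators and speckle proteins, 9 rose and 3 fell, with a median of 0.42. That is 39.1% higher and 13.0% lower, beside 21.3% and 19.4% of all genes. Fewer rose in each fit that left out a library, while the number that fell was smaller in some of these fits and not in others. BCLAF1 rose most (3.69 ± 0.40 SE), followed by SCAF8 (2.35 ± 0.41 SE) and SRRM4, the activator of neuronal microexons. SRRM4 stood at 10.4 CPM in the female and 3.91 in the male control, and at 40.1 in the female and 20.2 in the male given sevoflurane (2.06 ± 0.58 SE, edgeR adjusted p = 0.0323), and its call was lost without the male control (adjusted p = 0.0538) or the exposed female library (0.150). SCAF1 fell most, to −1.52 ± 0.38 SE, and its call was lost without the exposed male library (adjusted p = 0.0545).

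In the core of the spliceosome, which carries out the reaction itself, more genes fell than rose. Among 46 tested core proteins 16 (34.8%) fell and 6 (13.0%) rose, beside 19.4% and 21.3% of all genes, with a median of −0.39. Under library totals 14 fell and 8 rose (median −0.16), where 14.7% of all genes fell and 25.3% rose. Without the female control library 12 fell and 4 rose, without the male control 9 and 3, without the exposed female 17 and 5, and without the exposed male 8 and 4. PRPF31, a tri-snRNP protein mutated in retinitis pigmentosa, stood at 340.1 CPM in the female and 473 in the male control, and at 95.1 in the female and 71.4 in the male given sevoflurane (−2.29 ± 0.31 SE, edgeR adjusted p = 0.00350). SNRPD2 and SNRPB, subunits of the Sm ring, were at −2.10 ± 0.32 SE and −1.94 ± 0.35 SE. Among the rises were PRPF39, a protein of the U1 particle (1.45 ± 0.25 SE), and SF3B1, the scaffold of the U2 particle (1.41 ± 0.26 SE); both calls were made in each fit that left out 1 library. Reads on ribosomal protein genes were lower in the same libraries (1.15% and 1.19% against 2.80% and 3.86%); the part of that shift in these values was not tested.

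Among 47 tested RNA-binding regulators outside the 48 genes, 9 rose and 6 fell (31.9% called, beside 40.7% of all genes; median −0.048); under library totals 12 rose and 2 fell (median 0.18). RAVER2, a co-repressor that binds PTBP proteins, rose most (3.84 ± 0.57 SE). QKI, a regulator of glial and myelin exons, stood at 23.4 CPM in the female and 29.5 in the male control, and at 207 in the female and 292 in the male given sevoflurane (3.24 ± 0.31 SE, edgeR adjusted p = 0.00187). ELAVL4, the neuronal HuD protein, stood at 14.3 CPM in the female and 3.91 in the male control, and at 81.7 in the female and 90.8 in the male given sevoflurane (3.23 ± 0.60 SE, 0.00827). RALY, an hnRNP of the C type whose symbol does not begin with HNRNP, had 183 and 205 CPM in the controls and 84.8 and 54.2 in the sevoflurane libraries and was the largest fall (−1.48 ± 0.30 SE). TARDBP, which keeps cryptic exons out, had 208 and 207 CPM in the controls and 229 and 222 in the sevoflurane libraries and was not called (0.12 ± 0.24 SE). Without the male control or the exposed male library 1 gene of this list fell, and without the female control 3. Of 14 nonsense-mediated decay and exon junction genes 3 rose and 1 fell (28.6% called, beside 40.7% of all genes), with a median of 0.14. SMG1, the kinase that activates UPF1, stood at 4.96 CPM in the female and 3.46 in the male control, and at 138 in the female and 138 in the male given sevoflurane (5.02 ± 0.33 SE, edgeR adjusted p = 0.00141), while UPF1 and UPF2 rose by 1.63 ± 0.34 SE and 1.54 ± 0.35 SE. Without the male control library only SMG1 rose (edgeR adjusted p = 0.0511 for UPF1 and 0.0739 for UPF2), and UPF2 was also lost without the exposed male (0.0576). The fall of SMG9 (−1.07 ± 0.33 SE, edgeR adjusted p = 0.0433) was lost without the female control (0.0637), the male control (0.113) or the exposed male library (0.140), and with library totals (0.0934).

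**Figure D5:**
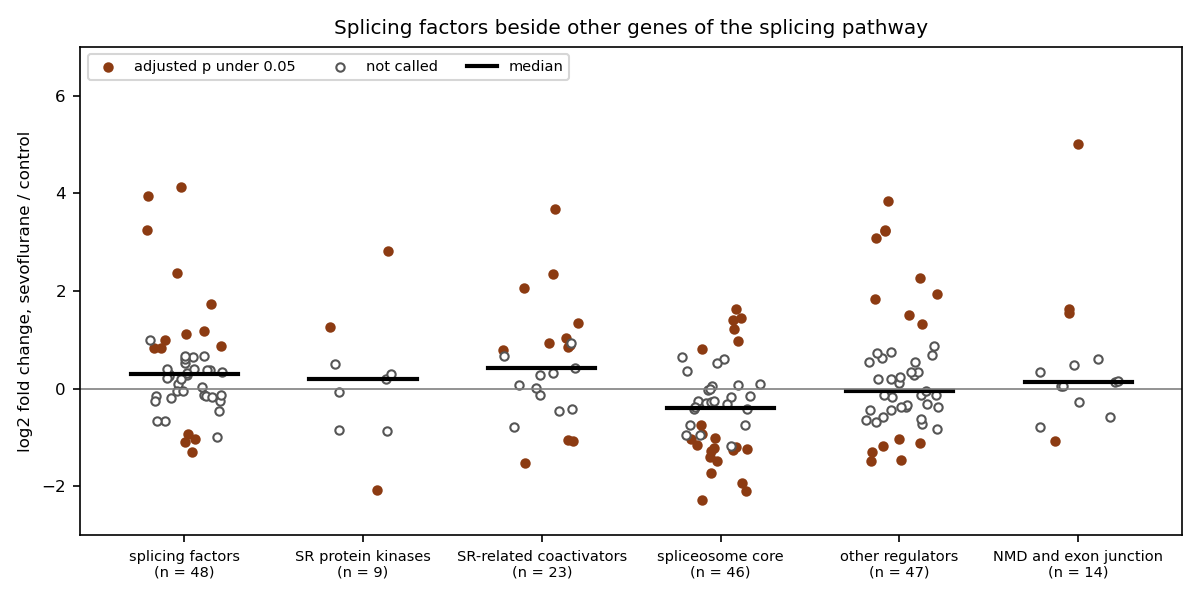
Log2 fold change of each tested gene, sevoflurane over control, for the 48 splicing factors and 5 lists of other splicing-pathway genes; filled points were called at an adjusted p under 0.05, and black lines are medians. The medians run from −0.39 for the spliceosome core to 0.42 for SR-related coactivators, with 0.30 for the 48 genes.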

How the data were processed

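Libraries were made from total RNA of the amygdala, extracted with Trizol, per the labels' protocols. Per the submitters' processing notes the reads passed through HISAT2. Genome build, annotation, strand setting and read counter were not given in the sources used here. Whole-number counts were what the authors deposited: reads on each gene, 1 column a library, without normalization. An ID-to-symbol table matched 24173 of the 35395 genes.

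Counts were tested across all genes with edgeR 4.0.16 (R 4.3.3): filterByExpr by condition with a minimum count of 10, TMM scaling, and the quasi-likelihood F-test on condition alone (2 residual degrees of freedom), or condition and sex for males against females (1 residual degree of freedom). Calls needed a p, adjusted by Benjamini and Hochberg's method, below 0.05. Standard errors came from the F statistic, and changes within a sex from log2 CPM with a prior count of 2. The script was tested on simulated data. Alternatives were library totals, RLE size factors, DESeq2 1.42.0, no filter on low counts, sex as a term, and leaving out each library in turn. A fit without 1 library assumes that the lone library of a condition varies like the other condition. The labels give no replicate numbers; replicate 1 is the female and replicate 2 the male.

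The 48 genes, the lists of other splicing genes and the cell markers were chosen with earlier results of these data known. Every one of the 48 is named. CPM in each library was planned for the 8 largest called rises, the 8 largest called falls (4 existed) and paralogs, and for each list the largest called rise and fall, up to 3 a direction. DYRK1A, CLK1, SRRM4, ELAVL4, QKI, TARDBP and SMG1 were named whatever their values; some genes that the rule names are not reported here. Protein and promoter sequences and gene lengths were not analysed here.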

Additional observations from a re-analysis of the deposited data

Results flagged for a closer look

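Changes of opposite sign in the 2 sexes were found for 8 of the 48 genes, and with 1 library for each sex and condition the difference was not tested. Given as log2 fold change in females and then in males, these were SRSF6 at −0.12 and 0.27, TRA2A at 0.061 and −0.46, HNRNPA1 at 0.37 and −0.017, HNRNPA1L2 at −0.62 and 0.015. The others were HNRNPA2B1 at 0.056 and −0.17, HNRNPF at 0.28 and −0.39, HNRNPH3 at 0.16 and −0.11 and HNRNPUL1 at 0.023 and −0.35. None of the 8 was called between the conditions by edgeR under any alternative run.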

How the results depend on the processing

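RLE size factors gave 15 calls. No filter on low counts, sex as a term and DESeq2 gave 17 each (35.4% of the group), beside 33.7%, 50.8% and 31.8% of all genes tested. DESeq2 changed the tool, the size factors and the low-count filter together, and its shares count any gene left without an adjusted p as not called. With library totals the number of genes called lower was 1 and the median log2 fold change 0.53; 8 changes that were negative with TMM became positive, SRSF3 at 0.077, TRA2A at 0.053, HNRNPA2B1 at 0.18, HNRNPD at 0.10, HNRNPF at 0.19, HNRNPH2 at 0.10, HNRNPUL1 at 0.085 and NOVA1 at 0.059, and the cause was not tested. Leaving out each library in turn gave 7 to 13 calls, 5 to 8 higher and 0 to 5 lower, medians of 0.20 to 0.36, and 3469 to 5800 calls over all genes. The sign of 10 uncalled genes turned in at least 1 such fit, with ranges of −0.18 to 0.35 for SRSF6, −0.42 to 0.029 for TRA2A, −0.069 to 0.53 for HNRNPA0, −0.022 to 0.39 for HNRNPA1, −0.74 to 0.14 for HNRNPA1L2, −0.15 to 0.049 for HNRNPA2B1, −0.24 to 0.14 for HNRNPF, −0.27 to 0.014 for HNRNPH2, −0.14 to 0.20 for HNRNPH3 and −0.35 to 0.040 for HNRNPUL1; the cause was not tested. Males against females, all genes, gave 283 calls, 603 without the filter and 0 with sex as the only term; leaving out a library leaves that fit no residual degrees of freedom, so it could not be fitted. No paired analysis was possible because replicate numbers are not in the labels; sex as a term is the nearest fit. Depth did not keep any of the 48 genes out of the test.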

Other observations

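Read ratios between paralogs, which need no scaling between libraries, also differed for hnRNP paralogs. The HNRNPLL to HNRNPL ratio was 1.88 times higher after sevoflurane in females and 4.80 times in males, and the HNRNPA3 to HNRNPA2B1 ratio 1.61 and 2.14 times. Within the SRSF10 and SRSF12 pair, SRSF10 held 16.6% in the female and 20.9% in the male control, and 65.8% in the female and 62.9% in the male given sevoflurane. These ratios were described and not tested.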
